A study of Homo sapiens with 3 samples.

Results

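The genes described here encode the constitutive subunits of the proteasome, the protease complex that degrades ubiquitin-tagged proteins. They were chosen by symbol: PSMA, PSMB, PSMC or PSMD followed by a number and nothing else, without the interferon-inducible PSMB8, PSMB9 and PSMB10, and with at least 1 CPM (UMIs of the gene per 1000000 UMIs of the library) on average over the 3 libraries. This gave 34 genes of 19912 features. A further 2 genes matched the symbol but not the minimum, PSMB11 (the thymus-restricted beta subunit) at a mean of 0.0209 CPM and PSMA8 (the testis form of an alpha subunit) at 0.0738 CPM, far below the lowest member, PSMA6, at 11.6 CPM. PSMC3IP shares the prefix but encodes a recombination protein and was left out.

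The cells were HCT116, a human colorectal carcinoma line, carrying a histone H2B-GFP label in all 3 groups. They had been cultured in an organ-on-chip with a top and a bottom channel, either under peristaltic stretch for 6 days or without stretch, and GFP-positive cells were sorted after trypsin detachment. The groups were the top channel without stretch (not invaded), the top channel with stretch (not invaded) and the bottom channel with stretch (invaded), with 1 library each. There was therefore no replicate error and no test between groups, and every interval below is a 95% interval for counting error only. PCR copies had been collapsed to UMIs, but nothing in these intervals covers differences between chips, harvests or library preparations.

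The libraries held 17206, 20121 and 1951 kept cells and 212503735, 210814252 and 76641034 UMIs, in the order not stretched top, stretched top and stretched bottom. The stretched bottom library stood apart in depth and in RNA from mitochondria: its median cell had 40387 UMIs, against 10964 and 9384, and a mitochondrially encoded share of 4.09%, against 9.64% and 10.4%. Between 6 and 88 kept barcodes were shared by any pair of libraries, at most 0.511% of either. In each library 7 of 7 epithelial markers were above 1 CPM, with a summed level of 4449 to 4767 CPM; EPCAM stood at 386, 389 and 501 CPM. The junction genes CDH1, at 50.4, 40.4 and 25.9 CPM, and CLDN3, at 55.6, 52.6 and 32.4 CPM, were more than 1.5-fold lower in the stretched bottom than in the stretched top library. None of the other epithelial markers passed 1.5-fold between these libraries. Of those, CLDN4, also a junction gene, stood at 244, 220 and 244 CPM, and KRT18 at 1167, 1295 and 1466 CPM. The mesenchymal filament gene VIM stood at 5.94, 7.89 and 26.9 CPM. Summed levels were 102.6 to 125 CPM for the 6 endothelial markers, of which EGFL7 alone gave 101 to 123 CPM, 4.46 to 8.65 CPM for the 6 fibroblast markers and 5.02 to 6.39 CPM for the 5 leukocyte markers. Under that sum, some endothelial genes were low but higher in the bottom library: PECAM1 stood at 0.574, 0.564 and 1.74 CPM, VWF at 0.904, 0.783 and 1.54 CPM and CDH5 at 0.0329, 0.0569 and 0.744 CPM, and CLDN5 had 1, 0 and 59 UMIs. Others of the list did not share this. KDR, at 0.136, 0.0712 and 0.144 CPM, was near its not stretched top level, and EGFL7, at 123, 101 and 118 CPM, was below it. DCN and PTPRC were at most 0.0142 and 0.0565 CPM. The part of other cell types in the results below was not tested.

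The 26S proteasome consists of a barrel-shaped 20S core and a 19S cap. In the core, outer rings of alpha subunits (PSMA genes) gate the entrance, and inner rings of beta subunits (PSMB genes) hold the catalytic sites, PSMB5 (chymotrypsin-like), PSMB6 (caspase-like) and PSMB7 (trypsin-like). In the cap, a ring of ATPases (PSMC genes) unfolds substrates, PSMD1, PSMD2 and PSMD4 bind ubiquitin and its carriers, and a lid (other PSMD genes) holds the deubiquitinase PSMD14. PSMD5, PSMD9 and PSMD10 are chaperones that help to assemble the base of the cap and are not part of the finished complex. Proteasome genes are known to be transcribed in concert, with the transcription factor NFE2L1 acting through antioxidant response elements when proteasome activity is limiting.

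Because concerted transcription is the usual account of this family, promoters were examined for motifs, using 300 bases per gene (250 before to 50 after the start, RefSeq, GRCh38.p14), found for 29 of the 34 genes (not for PSMA7, PSMB1, PSMB6, PSMB7 and PSMD4). The antioxidant response element, searched as TGACNNNGC on both strands, was present in 7 of 29 promoters (24.1%) against 13.6% of 27305 promoters of the same length. Its windows, with the motif in capitals and written on the strand that holds it, are shown for 5 genes, 1 window each, to let the reader see how the central bases vary.
PSMB3 (chr17:38752627-38752655, plus strand): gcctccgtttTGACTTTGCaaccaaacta
PSMD3 (chr17:39980760-39980788, plus strand): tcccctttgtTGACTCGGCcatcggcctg
PSMD12 (chr17:67366724-67366752, minus strand): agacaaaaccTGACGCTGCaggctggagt
PSMD5 (chr9:120843038-120843066, minus strand): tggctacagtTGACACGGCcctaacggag
PSMD9 (chr12:121888678-121888706, plus strand): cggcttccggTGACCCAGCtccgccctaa
In these windows the fixed letters are alike and the bases between them and around them differ. The ETS motif CCGGAAG was present in 10 of 29 (34.5%) against 10.7% of all promoters, and the CCAAT box of NF-Y in 15 of 29 (51.7%) against 35.7%. The palindromic nuclear respiratory factor 1 motif was in 1 of 29 (3.45%), that of PSMA4, against 1.36%, and the heat shock element in 0 of 29 against 0.487%. Among the 14854 promoters of genes listed in these data, the shares were 14.3% for the antioxidant response element, 14.4% for ETS and 36.4% for CCAAT. They were 1.74% for nuclear respiratory factor 1 and 0.357% for the heat shock element. Bottom over top log2 ratios, described below, had a median of 0.27 with and 0.51 without the antioxidant response element, and of 0.54 with and 0.32 without the ETS motif. For the CCAAT box the medians were 0.52 with and 0.43 without. All members with the ETS motif were PSMC or PSMD genes, so that split overlaps with place in the complex. The differences between these medians were not tested. Whole promoters are shown for PSMC2 and PSMD13, genes whose ratios between the stretched libraries are described below, with ETS and CCAAT letters in capitals.
PSMC2 (chr7:103347393-103347692, plus strand): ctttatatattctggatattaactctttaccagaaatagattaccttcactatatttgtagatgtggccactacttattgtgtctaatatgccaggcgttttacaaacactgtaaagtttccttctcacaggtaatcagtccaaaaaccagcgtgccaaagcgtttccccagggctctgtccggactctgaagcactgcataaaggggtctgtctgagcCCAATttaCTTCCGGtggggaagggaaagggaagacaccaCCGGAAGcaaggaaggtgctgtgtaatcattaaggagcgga
PSMD13 (chr11:236726-237025, plus strand): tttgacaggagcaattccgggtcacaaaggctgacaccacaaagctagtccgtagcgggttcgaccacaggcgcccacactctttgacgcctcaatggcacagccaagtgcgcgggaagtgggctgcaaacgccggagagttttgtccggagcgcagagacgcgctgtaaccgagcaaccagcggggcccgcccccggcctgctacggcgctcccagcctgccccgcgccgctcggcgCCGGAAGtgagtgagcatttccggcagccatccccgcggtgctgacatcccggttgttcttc
PSMC2 held 2 ETS motifs, on opposite strands, and 1 CCAAT box, whereas PSMD13 held 1 ETS motif and no CCAAT box. A match is a match of letters only, and no binding was measured.

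The subunit genes together made up 0.644% of UMIs in the not stretched top library, 0.612% in the stretched top library and 0.819% in the stretched bottom library, or 6440 (6430 to 6451), 6117 (6106 to 6127) and 8191 (8171 to 8212) CPM. A 3′ library counts 1 UMI per captured transcript, so levels were not divided by length. Levels of different genes can still differ in how completely their reads were assigned. Of the members, 4 share part of their 3′ end with another listed gene and 11 have pseudogenes named after them. The part of this in the differences between genes was not tested. PSMA7, an alpha ring subunit, was the most abundant in every library, at 688, 693 and 912 CPM, followed by PSMB1, a non-catalytic beta subunit, at 609.7, 546 and 716 CPM. The catalytic subunits were in the middle of the ring's range: PSMB5 stood at 306, 300.3 and 332 CPM, PSMB6 at 339.5, 325 and 468.5 CPM and PSMB7 at 230.4, 199 and 245 CPM. ATPase genes ranged from PSMC5 at 178 to 251 CPM down to PSMC2 at 47.4 to 73.8 CPM. The chaperone genes PSMD5 and PSMD10 stood at 27.4 to 36.0 CPM, and PSMD9 at 32.6, 30.7 and 92.2 CPM, so that in both top libraries these 3 were the lowest members apart from PSMA6. The products of the ring genes are present once per ring, while their UMI counts differed widely, with a median member at 154, 144 and 173 CPM.

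**Figure D1:**
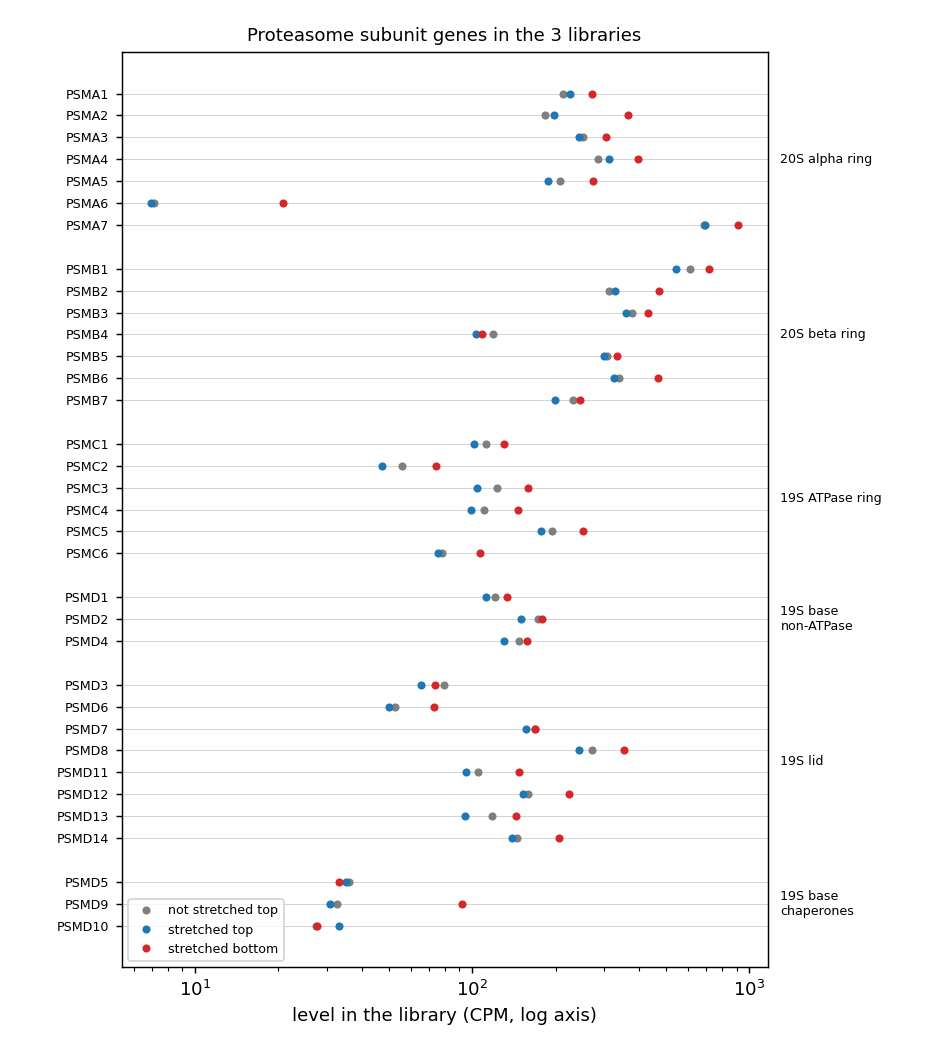
Level of each of the 34 subunit genes (points, CPM on a log axis, 1 point per library), grouped by place in the complex. PSMA7 is highest in all 3 libraries, PSMA6 stands far below the other alpha genes at 7.13, 6.94 and 20.8 CPM, and most stretched bottom points lie to the right of the other libraries' points.

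The order of the genes was nearly the same in each library. Spearman's rho of the levels across the 34 genes was 0.994 between the top libraries and 0.973 between the stretched libraries, as a description across genes, which are not replicates. PSMA7 gave 10.7%, 11.3% and 11.1% of all subunit UMIs and PSMB1 9.47%, 8.93% and 8.74%. The leading genes thus took similar shares of the total in each library. PSMA6 was the exception in level: at 7.13, 6.94 and 20.8 CPM it lay far under every other alpha subunit gene, and 83.3% of its last 1000 exonic bases lie in another listed gene on the same strand (AL121594.1), where reads cannot be given to 1 gene.

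The comparison of stretched top with not stretched top asks what stretch does to cells that stay in the top channel. Subunit genes differed little: 33 members reached the minimum of 10 CPM in one of the libraries, and 0 of them passed 1.5-fold upward and 0 downward, judged on log2 CPM after adding 1 CPM. Over all 9119 genes tested, 0.175% were called higher and 0.592% lower (0.768% in either direction), so a count of 0 among 33 is near the background. The median log2 ratio of the members was −0.09, against −0.17 for all genes with at least 1 CPM on average, and it turned to 0.080 with TMM factors and 0.094 with median of ratios factors, which move the median of all genes to -0.01 and 0.01. Among all genes the split of calls moved with scaling as well, from 16 higher and 54 lower to 70 and 10 under TMM. The background also depends on abundance. Among genes with at least 50 CPM in one of the libraries, the median was −0.12 for 30 members and −0.09 for all genes.

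Within that small range the alpha ring had the highest median. All 6 ATPase genes, all 3 non-ATPase base genes and all 8 lid genes were below 0, with medians of −0.15, −0.18 and −0.13, while 4 of 7 alpha ring genes were above 0, with a median of 0.01. In the beta ring 6 of 7 were below 0, with a median of −0.08, so the core was not uniform. Of all genes, 16.7% were above 0 here, and of the members 6 of 34, or 17.6%, so these sign counts are near the background. Signs near 0 depend on scaling: with TMM factors 26 of 34 members were above 0, against 6 of 34 here. The difference between the rings was not tested. PSMD13, a lid subunit, had the lowest ratio, at 94.1 against 118 CPM (1.26-fold lower, 1.23 to 1.28), followed by PSMD3, another lid subunit, at 65.5 against 79.1 CPM (1.21-fold lower, 1.18 to 1.24) and the ATPase PSMC3 at 104 against 123 CPM (1.19-fold lower, 1.16 to 1.21). These were below 0 under every alternative tried. At the other end, PSMD10, the chaperone also known as gankyrin, stood at 33.1 against 27.4 CPM (1.21-fold higher, 1.17 to 1.25), PSMA4 at 312 against 285 CPM (1.09-fold, 1.08 to 1.10) and PSMA2 at 197 against 184 CPM (1.07-fold, 1.06 to 1.09), and these 3 were above 0 under every alternative tried. The catalytic subunits PSMB5, PSMB6 and PSMB7 had log2 ratios of −0.03, −0.06 and −0.21, of which the first and second turned positive with median of ratios factors, at 0.16 and 0.13. No member reached 1.5-fold in either direction under any of the alternatives.

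**Figure D2:**
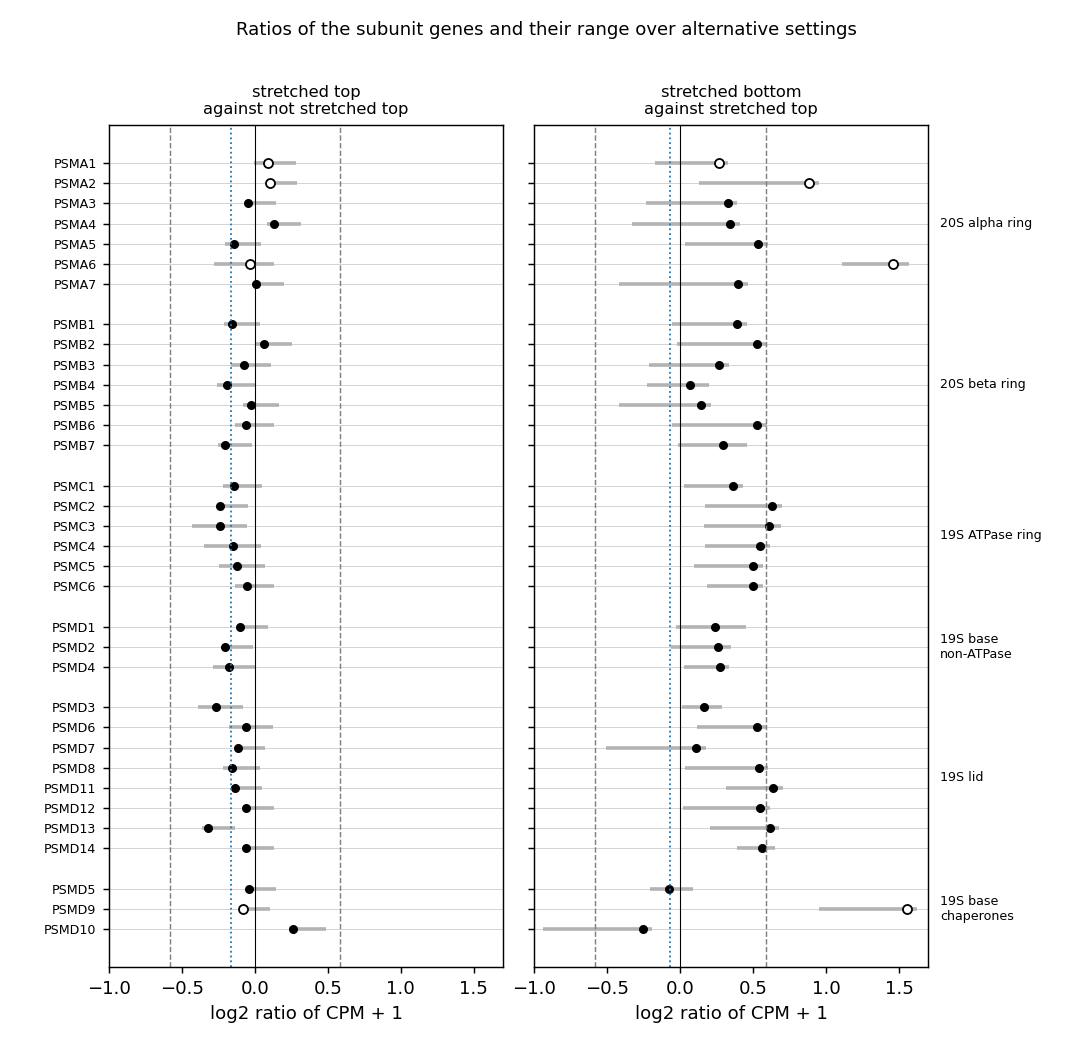
Log2 ratio (CPM plus 1) of each subunit gene in both comparisons that involve stretched top cells (points), with the range over the alternative settings (grey bars), 1.5-fold (dashed lines) and the median of all genes (dotted line). Open points mark the 4 genes that share a 3′ end with another listed gene; PSMA6, PSMD9 and PSMA2, the highest points on the right, are among them, and most grey bars on the right reach toward 0.

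The comparison of stretched bottom with stretched top asks how invaded cells differ from those that stayed above. Subunit genes were higher in the invaded cells nearly as a block: 32 of 34 log2 ratios were above 0, against 43.7% of all genes, the median was 0.45 against −0.07, and the summed level was 1.34 times as high. Scaling did not turn this median, which was 0.49 with TMM factors and 0.51 with median of ratios factors. The background was higher among abundant genes. With at least 50 CPM in one of the libraries, the median was 0.50 for 31 members and 0.15 for all genes. Of 34 members tested, 7 were at least 1.5-fold higher (20S: PSMA2 and PSMA6; ATPases: PSMC2 and PSMC3; lid: PSMD11 and PSMD13; chaperone: PSMD9) and 0 lower, where 7.93% of 8870 genes were called higher and 11.0% lower. PSMA6 was at 6.94 CPM in the stretched top library. It reached the 10 CPM minimum only through the bottom library, so it could not have been called lower. At a minimum of 50 CPM, 6 of 31 members were at least 1.5-fold higher, where 13.2% of 3308 genes were. Depth per cell and mitochondrial share differed between these libraries as given above, and within strata of mitochondrial share, which still differ in depth, the summed ratio was 1.05, 1.08 and 0.834 from the lowest share to the highest, with PSMA2, PSMC2, PSMC3, PSMD11 and PSMD13 no longer past 1.5-fold in the lowest stratum.

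By place in the complex, the lid and the ATPase ring had the highest medians, 0.54 over 8 genes and 0.52 over 6 genes, followed by the alpha ring at 0.40 over 7, the beta ring at 0.30 over 7 and the non-ATPase base at 0.26 over 3. Among the lid genes PSMD11, a scaffold subunit known to promote assembly, stood at 148 against 94.99 CPM (1.56-fold, 1.52 to 1.59) and PSMD13 at 144 against 94.1 CPM (1.53-fold, 1.499 to 1.57). The deubiquitinase PSMD14 stood at 205 against 139 CPM (1.48-fold, 1.45 to 1.51), whereas PSMD7, its partner in the lid, was nearly level at 168 against 156 CPM (1.08-fold, 1.06 to 1.10). Partners in 1 module thus differed by more than their counting intervals. Of the ATPases PSMC2 stood at 73.8 against 47.4 CPM (1.56-fold, 1.51 to 1.61) and PSMC3 at 159 against 104 CPM (1.53-fold, 1.49 to 1.56).

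The catalytic subunits were not alike either. PSMB6 stood at 468.5 against 325 CPM (1.44-fold, 1.42 to 1.46), PSMB7 at 245 against 199 CPM (1.23-fold, 1.21 to 1.25) and PSMB5 at 332 against 300.3 CPM (1.11-fold, 1.09 to 1.12). PSMB4, a structural beta subunit, was lowest of its ring at 109 against 104 CPM (1.05-fold, 1.02 to 1.08). The only members below 0 were assembly chaperones: PSMD10 at 27.5 against 33.1 CPM (1.20-fold lower, 1.14 to 1.26) and PSMD5 at 33.1 against 34.9 CPM (1.06-fold lower, 1.01 to 1.11). PSMD10 thus had the highest ratio of the family with stretch in the top channel and the lowest in the bottom channel against the top. Both comparisons use the stretched top library, on opposite sides of the ratio.

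The 3 largest ratios belonged to genes whose 3′ ends are shared. PSMD9 (chr12:121888731-121918297, hg38) stood at 92.2 against 30.7 CPM (3.00-fold, 2.90 to 3.11) and shares 43.6% of its last 1000 exonic bases with WDR66. PSMA6 (chr14:35278633-35317493) stood at 20.8 against 6.94 CPM (3.00-fold, 2.79 to 3.22) and shares 83.3%, and PSMA2 (chr7:42916857-42932223) stood at 365 against 197 CPM (1.85-fold, 1.82 to 1.88) and shares 34.3% with AC010132.3. The fourth such member, PSMA1, shares 64.8% with AC018523.2 and stood at 271 against 226 CPM (1.20-fold, 1.18 to 1.22). The partner genes themselves were low, at most 3.88 CPM in any library. Over the whole table, 45.0% of 109 tested genes with more than 50% of their last 1000 bases shared were at least 1.5-fold higher in the bottom library, the class of PSMA6 and PSMA1. For genes with up to 50% shared, the class of PSMD9 and PSMA2, the share was 16.9% of 178, and for genes with none shared 7.27% of 8583. Between the top libraries these shares were 0% of 92, 0.546% of 183 and 0.170% of 8844. With 92 tested there against 109 here, some of the most shared genes reached 10 CPM only in the bottom library. Such genes of any class, like PSMA6, could not have been called lower. Without the 4 shared genes, 4 of 30 members were at least 1.5-fold higher and the median was 0.39. How reads in shared ends were counted in each library was not tested.

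The subunit total followed the mitochondrial share of a cell's UMIs in every library. In the not stretched top library it stood at 8562 CPM in cells with at most 5% mitochondrial UMIs, 7065 CPM at 5 to 10% and 5161 CPM at 10 to 20%. In the stretched top library these values were 8135, 6806 and 5213 CPM, and in the stretched bottom library 8526, 7321 and 4348 CPM. Cells with a low mitochondrial share gave a larger share of their UMIs to the subunits in all 3 libraries, and this held when mitochondrial UMIs were left out of the totals: the stretched top values were then 8454, 7385 and 6001 CPM. Of the 34 genes, 34, 34 and 31 were higher in the lowest than in the highest of these strata (in the order not stretched top, stretched top, stretched bottom), and 28, 25 and 25 were at least 1.5-fold higher, where 11.4%, 9.83% and 17.3% of genes with a mean of at least 10 CPM were.

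Within these strata the ratios between the stretched libraries were nearer to 1, although depth still differed: median UMIs per cell were 5484 in the top against 47681 in the bottom library at 0 to 5%, 11650 against 31674 at 5 to 10% and 8287 against 11335 at 10 to 20%. Bottom over top was 1.05 at 0 to 5%, 1.08 at 5 to 10% and 0.834 at 10 to 20% mitochondrial UMIs, against 1.34 over all kept cells, with 1323, 429 and 199 bottom cells and 1712, 7457 and 10952 top cells behind them. The median log2 ratio of the members was 0.11, 0.15 and −0.16, where that of all genes was −0.12 in the first stratum and 0.42 in the third. In the lowest stratum PSMC2 stood at 77.1 against 63.8 CPM, PSMC3 at 165 against 147 CPM, PSMD11 at 153 against 131 CPM and PSMD13 at 150.1 against 128 CPM, all short of 1.5-fold, and the calls left there were PSMA6 and PSMD9, with log2 ratios of 1.38 and 1.33. With the 3 strata given equal weight, a setting added after seeing the data, the median over members was 0.049, against 0.15 for all genes, and 2 of 34 were called higher and 1, PSMD10, lower, where 14.9% of 9159 genes were called higher and 4.40% lower. In the highest stratum, with its 199 bottom cells, 4 members were called lower and 2 higher: PSMA7 stood at 331 against 581 CPM, PSMB5 at 150.2 against 260.5 CPM, PSMB3 at 193 against 297 CPM and PSMD10 at 9.82 against 30.1 CPM, with PSMD1 and PSMD14 on the other side. The share of all genes called within a single stratum is not given here. Counts of calls within single strata therefore have no background beside them. The part of mitochondrial share in the ratio over all cells was not tested beyond these strata.

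**Figure D3:**
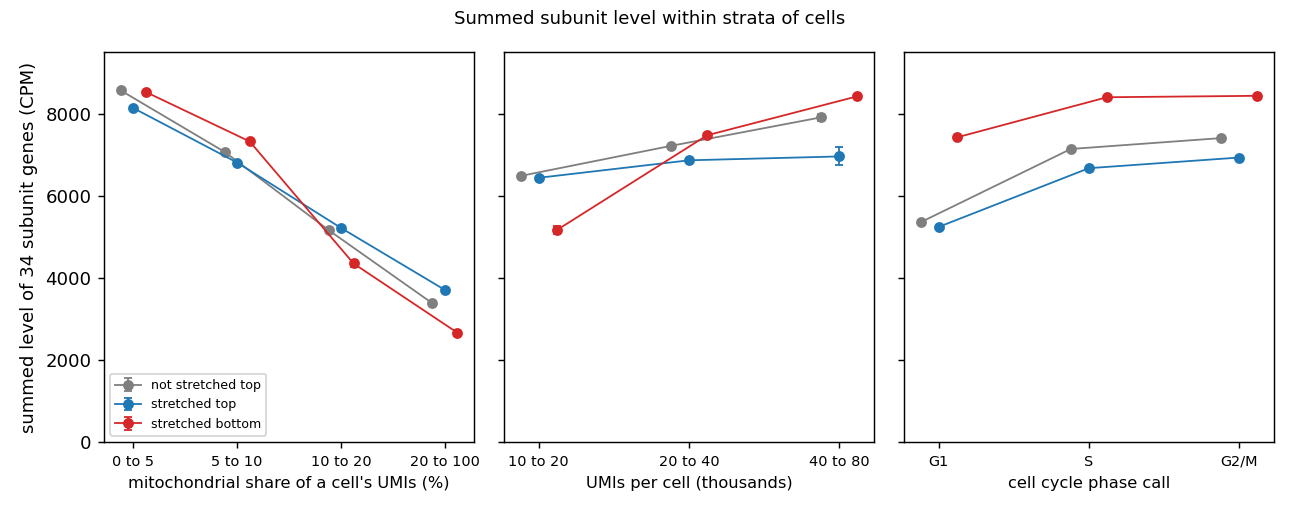
Summed level of the 34 subunit genes (CPM, with 95% counting intervals) in each library, by the mitochondrial share of the cell's UMIs, by UMIs per cell and by phase call. Levels fall with the mitochondrial share in all 3 libraries and the lines lie close together there, while by phase the stretched bottom library lies above the other libraries; barcodes above 20% mitochondrial UMIs are not among the kept cells.

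UMIs per cell gave a related picture. In cells with 20000 to 40000 UMIs the totals, in library order, were 7214, 6862 and 7470 CPM (2389, 1462 and 400 cells). In cells with 10000 to 20000 UMIs it stood at 6481, 6436 and 5162 CPM (7046, 7620 and 156 cells), so the bottom library was lowest there. Its 156 cells had a median mitochondrial share of 10.9%, against 9.38% and 9.63%. At 20000 to 40000 UMIs the bottom library had the lowest median share, 5.06%, against 7.97% and 8.20%. Depth still differed there, with a median of 32813 UMIs in the bottom library against 24363 and 23130. Above 40000 UMIs the stretched top library had 12 cells, too few for a comparison. Giving equal weight to the lower pair of strata, also added after seeing the data, brought the median log2 ratio of bottom over top to 0.033, against 0.19 for all genes, and PSMC2, PSMC3, PSMD11 and PSMD13 to between 0.16 and 0.31.

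The difference was present within every phase call. Phases were called from S and G2/M gene lists in cells thinned to 3000 UMIs. In cells called G1 the total stood at 5352, 5238 and 7418 CPM, in S at 7138, 6670 and 8398 CPM and in G2/M at 7403, 6929 and 8433 CPM, in the order not stretched top, stretched top and stretched bottom. Cycling calls had more subunit UMIs than G1 calls in every library, and the bottom library was highest in every phase, with bottom over stretched top at 1.42 in G1, 1.26 in S and 1.22 in G2/M. The bottom library had 25.9% of cells in G1, against 53.8% in the stretched top library. The ATPase PSMC3 had the largest G2/M over G1 log2 ratio of the family in all 3 libraries, 0.84, 0.80 and 0.51. Above 0 were 34, 34 and 32 members, where 49.1%, 51.3% and 45.7% of genes with a mean of at least 10 CPM were. G1 cells also carried a higher mitochondrial share, with medians of 11.3%, 12.0% and 4.75% against 8.10%, 8.97% and 3.94% in G2/M, and the part of free RNA in these calls was not tested.

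With each cell thinned to the same number of UMIs, the bottom library had more subunit UMIs per cell. Thinning does not match cells by original depth or mitochondrial share, which differed as given above. Within strata of UMIs per cell, bottom over stretched top was 0.802 at 10000 to 20000 UMIs and 1.09 at 20000 to 40000 UMIs. After thinning to 3000 UMIs, which left out 1507, 1205 and 242 shallower cells, medians were 17, 16 and 24 subunit UMIs per cell in library order, with 5th to 95th percentiles of 7 to 32, 7 to 30 and 10 to 36. The distributions overlapped widely. The median cell had at least 1 UMI of 12, 12 and 15 different subunit genes, and 1, 2 and 0 cells had none of any. The variance of the count was 3.34, 2.82 and 2.63 times its mean, where counting alone gives a value near 1.

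**Figure D4:**
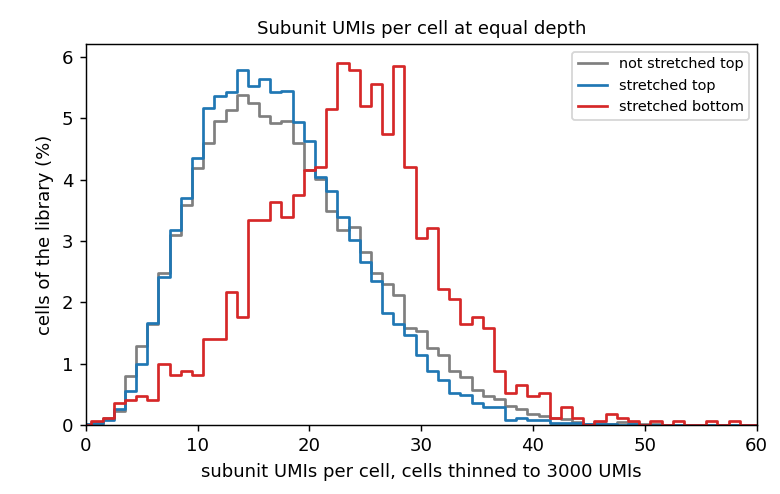
Share of cells (%) by number of subunit UMIs after thinning each cell to 3000 UMIs (1 line per library). The stretched bottom line peaks to the right of the others, with medians of 24 against 16 and 17 UMIs, and the lines overlap over most of their range.

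Stretched bottom against not stretched top sets the invaded cells against cells that had no stretch; it shares a library with each comparison above. The median log2 ratio of the members was 0.37, against −0.24 for all genes, and 4 of 34 were at least 1.5-fold higher and 0 lower, where 6.80% of 9218 genes were called higher and 20.7% lower. The 4 were PSMD9 (2.83-fold, 2.73 to 2.92), PSMA6 (2.91-fold, 2.71 to 3.13), PSMA2 (1.99-fold, 1.96 to 2.02) and the beta subunit PSMB2 at 471 against 313 CPM (1.505-fold, 1.49 to 1.52), of which PSMB2 alone has no shared 3′ end. Here too PSMA6 reached 10 CPM only in the bottom library. The lowest were PSMB4 at 109 against 118 CPM (1.09-fold lower, 1.06 to 1.12), PSMD5 at 33.1 against 36.0 CPM (1.09-fold lower, 1.04 to 1.14) and PSMD3 at 73.5 against 79.1 CPM (1.08-fold lower, 1.04 to 1.11). With TMM factors 17 members were called higher, where 14.9% of all genes were, and with median of ratios factors 19, where 17.2% were. TMM also moved the split over all genes from 627 higher and 1910 lower to 1355 and 1020. Among genes with at least 50 CPM in one of the libraries, the median was 0.37 for 31 members and 0.059 for all genes. At that minimum 3 of 31 members were called higher, where 12.7% of 3511 genes were. Within strata of mitochondrial share the summed ratio was 0.996, 1.04 and 0.843, from the lowest share to the highest.

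Genes that work with the proteasome did not all follow it between the stretched libraries. Of 39 such genes tested, 4 passed 1.5-fold upward in the bottom library (PSMB10, PSMG1, TXNL1 and UFD1) and 2 downward (PSMB9 and PSME1), where 7.93% and 11.0% of all genes did, so these counts are near the background. The 6 other assembly chaperones were all above 0, with a median of 0.44, as for the subunits. PSMG1, which helps to form the alpha ring, stood at 130.4 against 66.1 CPM (1.97-fold, 1.92 to 2.02) and PSMG3, lowest of the list, at 119 against 94.6 CPM. Of 8 proteasome-associated genes 1 was higher, the thioredoxin-like TXNL1, at 189.6 against 124 CPM (1.53-fold, 1.5 to 1.56), and the ubiquitin ligase UBE3C, at 63.8 against 87.1 CPM, had the lowest ratio. Among 8 shuttle and segregase genes UFD1, a cofactor of VCP, stood at 179 against 112 CPM (1.60-fold, 1.57 to 1.64) and NPLOC4, the other cofactor of that pair, at 63.0 against 73.0 CPM. The list of 4 genes of the NFE2L1 pathway had 0 members past 1.5-fold: NFE2L1 stood at 52.1 against 40.5 CPM and DDI2, the protease that releases it, at 13.5 against 15.8 CPM. The 6 ubiquitin and E1 genes had a median of −0.08, from RPS27A at 4136 against 5274 CPM to UBB at 1267 against 1109 CPM.

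Activators and interferon-inducible subunits lay on the other side or on both. PSME1, a subunit of the interferon-inducible 11S activator, stood at 110 against 202 CPM (1.84-fold lower, 1.80 to 1.89), while PSMF1, an inhibitor, had the highest ratio of that list, at 64.4 against 54.1 CPM. Of the inducible catalytic subunits, PSMB9 stood at 9.69 against 47.4 CPM and 67.3 CPM in the not stretched top library, and PSMB8 was below 1.5 CPM in all 3. PSMB10 went the other way, at 41.5 against 12.3 and 12.4 CPM, and shares 55.2% of its last 1000 bases with AC040162.1, itself at 8.01 against 1.99 and 1.90 CPM. The constitutive PSMB6, whose place PSMB9 takes in the immunoproteasome, stood at 468.5 against 325 CPM in the same libraries.

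The CCT chaperonin, a folding complex of similar build with 8 subunit genes, gave a comparison outside protein degradation. All 8 were above 0 in the bottom library against stretched top, where 43.7% of all genes were, with a median of 0.54 against 0.45 for the proteasome genes, and 4 were at least 1.5-fold higher: CCT4 (1.54-fold), TCP1 (1.57-fold), CCT5 (1.65-fold) and CCT6A (1.73-fold), where 7.93% of all genes were. CCT3 had the lowest ratio, at 667 against 563 CPM. Proteasome genes did not stand out from this other complex by median, and the difference between the lists was not tested. In stretched top against not stretched top the CCT median was 0.05 against −0.09, with 0 of 8 past 1.5-fold.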

How the data were processed

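Transcripts of sorted single cells were counted in 3 droplet 3′ libraries, 1 per group, per the labels' protocols. The authors deposited unnormalised UMI counts made with Cell Ranger 7.0.0, per the file headers, on hg38 per the submitters' processing notes. The annotation version, and whether intronic reads were counted, were not given in the sources used here. Barcodes with at least 500 genes, 1000 UMIs and at most 20% mitochondrial UMIs were kept, which left out 34.1%, 20.1% and 44.5% of barcodes. No doublets were removed.

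UMIs were summed over kept cells and divided by library totals. Ratios used CPM with 1 CPM added. A call needed 1.5-fold and 10 CPM in one of the libraries, with no test. Intervals of CPM are exact Poisson, those of summed shares Clopper-Pearson and those of folds exact conditional binomial. All cover counting error only, and a count of 3 UMIs is 0.0141, 0.0142 and 0.0391 CPM. Strata, phase calls (scanpy 1.11.5) and TMM factors (edgeR 4.0.16, R 4.3.3, for scaling only) were made from the same counts with Python 3.11.15, numpy 2.4.6, scipy 1.17.1 and pandas 2.3.3. Shared 3′ ends and coordinates came from GENCODE release 29, on the same build, matched by gene ID for 19902 of 19912 features. Its last 1000 exonic bases of each gene's principal transcript were used. The ratio step was checked on simulated counts.

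The members, lists and named genes were chosen with earlier results of these data known. In full are given the catalytic subunits, the 3 highest and 3 lowest members of each comparison, all members past 1.5-fold, and in related lists the highest, the lowest and those past 1.5-fold for stretched bottom against stretched top; PSMA1, PSMA7, PSMB1, PSMB3, PSMC5, PSMD1, PSMD7, PSMD14 and the cell type markers other than EPCAM and VIM were added after their values were seen. The alternatives, 16 planned and 3 added after seeing the data, are given in the closing section.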

Additional observations from a re-analysis of the deposited data

How the results depend on the processing

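No paired analysis was possible because each group had 1 library. For stretched top against not stretched top, 0 members were called under all 19 alternatives, and the median over members turned from −0.09 to 0.080 (TMM) and 0.094 (median of ratios). It was above the median of all genes in the main setting, but with a minimum of 50 CPM it was −0.12 against −0.09. For stretched bottom against stretched top, the median stayed above 0, between 0.033 and 0.51. It did not stay above the median of all genes. Members against all genes were 0.45 against -0.07 in the main setting. With a minimum of 50 CPM they were 0.50 against 0.15. With equal weight of 3 mitochondrial strata they were 0.049 against 0.15, and with 2 UMI strata 0.033 against 0.19. The count of 7 higher (7.93% of all genes) became 15 under median of ratios (all genes 10.5%), 3 with the stricter cell filter (4.01%), with totals without mitochondrial and ribosomal protein genes (4.03%), with equal phase weights (5.59%) or with cells of at most 10% mitochondrial UMIs (4.07%), 4 of 30 without genes of shared 3′ ends (7.27% of genes with none shared), and 2 at 2-fold (1.27%) or with equal weight of 3 UMI strata (11.6%), 2 UMI strata (20.6%) or 3 mitochondrial strata (14.9%). Under each of these last 3 settings 1 member, PSMD10, was called lower. With a minimum of 50 CPM, 6 of 31 members were called higher, against 13.2% of all genes at that minimum. For stretched bottom against not stretched top, the median of 0.37 became 0.62 under median of ratios, past 1.5-fold, and -0.018, -0.051 and -0.082 with equal weight of 3 UMI, 3 mitochondrial and 2 UMI strata. The medians of all genes with these strata were -0.027, 0.0076 and 0.048, against -0.24 in the main setting. With a minimum of 50 CPM the members' median was 0.37, against 0.059 for all genes. The count of 4 (6.80% of all genes) became 17 under TMM (14.9%), 19 under median of ratios (17.2%), 1 of 30 without shared 3′ ends (6.12% of genes with none shared), and 2 at 2-fold (1.62%) or with equal weight of 3 UMI (6.66%), 2 UMI (11.9%) or 3 mitochondrial strata (8.18%). The setting with 3 UMI strata rests on 12 stretched top cells in its highest stratum. Of the 7 members called in the second comparison, PSMA6 and PSMD9 stayed past 1.5-fold under every alternative that kept them. Both are left out by 1 alternative, that without shared 3′ ends, and PSMA6 also by the minimum of 50 CPM. PSMA6 had entered the main comparison only through its level in the bottom library. With 1 library a group, depth bounds counting error alone, and differences between harvests cannot be told apart from differences between groups.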
